A study of Homo sapiens with 12 samples.

Results

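The comparison described here asked whether the transcriptional response of Caco-2 cells to bafilomycin A1 depends on the culture medium. Caco-2 cells come from a human colorectal adenocarcinoma and, when cultured, acquire features of the absorptive cells of the small intestine. Bafilomycin A1 (BafA1) is a macrolide that blocks the vacuolar proton pump. RNA was sequenced from 12 libraries, 3 in each of 4 groups, all from unmodified cells kept for 48 h. Rich medium was EMEM with 1 g/L glucose, 2 mM glutamine and 20% fetal bovine serum, and depleted medium was a glucose-free and glutamine-free DMEM to which 0.1 g/L glucose, 0.2 mM glutamine and 1% serum were added, so the base medium differed as well as the nutrients. Pyruvate (1 mM), non-essential amino acids (0.1 mM) and antibiotics were in both media, and each was given with vehicle or with 100 nM BafA1. The groups are called rich vehicle, rich BafA1, depleted vehicle and depleted BafA1 below. Whether the 3 libraries of a group stem from separate cultures is not in the labels, so the p-values reflect the spread between libraries alone, and that spread may be technical.

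For each gene the interaction is the log2 fold change of BafA1 over vehicle in depleted medium minus the same log2 fold change in rich medium. A positive interaction means that the level in depleted BafA1 lay above what the 2 single changes, multiplied, would give, and a negative one that it lay below. The interaction was tested with edgeR's quasi-likelihood test for 18047 expressed genes of the 54553 listed in each table, with Benjamini-Hochberg adjustment over all of them, and a gene is said to be called at an adjusted p under 0.05. Levels are given as CPM, that is, counts relative to the library total after TMM scaling, and 3 values in a row are replicates 1, 2 and 3.

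The vacuolar proton pump (V-ATPase) acidifies lysosomes and endosomes. Acid lysosomes degrade what autophagy and endocytosis bring in, release amino acids, cholesterol and iron to the cytosol, and serve as the platform on which the kinase complex mTORC1 senses nutrients. Active mTORC1 promotes ribosome production, lipid synthesis and growth, while loss of glucose, amino acids or serum factors lowers it and engages stress programmes such as those of ATF4 and the FOXO factors.

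The libraries held 12969814 to 51649213 reads assigned to genes. Replicate 1 of rich vehicle was the shallowest, and the other 11 held at least 33859998. Replicate 3 of rich BafA1 stood apart from its group, with Spearman correlations across genes of 0.985 with both of its group mates and of 0.985 to 0.99 with the depleted vehicle libraries. The gap between transcript length and effective length, which grows with fragment length, had a median of 166.6 to 170.6 bases in depleted BafA1, 174.6 to 187.5 in 8 other libraries and 245.7 in the shallow one. Epithelial genes such as EPCAM, CDH1, KRT8, VIL1, CDX2 and HNF4A were present in every group, while KRT20, CDX1, GPA33 and LGALS4 were near 0. The enteroendocrine markers NEUROD1 and PAX4 and the Paneth markers DEFA5, DEFA6 and REG3A were at 0 in every library, while other members of both lists were detected at low levels. In bulk RNA, fewer cells of a kind and less RNA per cell cannot be told apart.

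The medium changed the BafA1 response of 1116 genes, 6.18% of those tested. The interaction was higher than 0 for 424 genes (2.35%) and lower for 692 (3.83%), so 38.0% of the calls were higher. Lower calls were also the larger, with a median log2 interaction of -1.49 against 0.99 for the higher calls. A log2 interaction below -2 was found for 190 called genes and one above 2 for 15. The median over all genes tested was -0.05, and 4036 genes had an unadjusted p under 0.05. Protein-coding genes made up 93.1% of the calls and 75.9% of the genes tested.

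The number of calls depended on single libraries. Without replicates 2 or 3 of depleted BafA1 it was 439 and 452, and without replicates 1, 2 or 3 of depleted vehicle it was 397, 594 and 516. It was 676 and 618 without replicates 2 or 3 of rich BafA1, and 1893 without replicate 2 of rich vehicle. Without both libraries that stood apart, rich vehicle replicate 1 and rich BafA1 replicate 3, 812 genes were called, 293 higher and 519 lower, and 640 of them were among the 1116. The share of higher calls also depended on a correction for gene length. For this, each library's trend of level against the gene's median length over the libraries was taken into the fit. Then 710 genes were higher and 760 lower, or 48.3% higher. In none of these fits did a called gene change sign. Of the genes named by rule, those whose calls ended without both libraries that stood apart were RNR2, POLR3G, PTH1R, SQLE, CREB3L3, APOA1, CIDEB, ATP6V1C2, CTSB, CLN3, ULK1, PHGDH, EGLN3, LOX, SLC40A1, HFE, CDC6, BUB1, AMOTL2, PROM1, ANPEP, CDKN1C and HNF4A. With limma voom quality weights the calls of PTH1R, SPTLC3, CYFIP2, CREB3L3, CIDEB, ATP6V1C2, LOX, HFE and CDKN1C ended.

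The responses in the 2 media, which share no library, correlated weakly across genes (Pearson r = 0.198, Spearman rho = 0.192, 18047 genes, which are not independent). In rich medium BafA1 raised 1109 genes (6.15%) and lowered 862 (4.78%), and in depleted medium it raised 992 (5.5%) and lowered 1066 (5.91%). Of these, 183 were higher in both media and 178 lower in both, while 37 rose in rich and fell in depleted medium and 28 did the reverse. For most called interactions the response was called in 1 medium. Among the 424 higher genes, 182 rose in depleted medium with no call in rich, 161 fell in rich medium with no call in depleted, 28 did both and 53 had neither response called. Among the 692 lower genes, 285 fell in depleted medium only, 281 rose in rich medium only, 37 did both, 10 rose in both media, 5 fell in both and 74 had neither called. This split was not recomputed without single libraries, and the calls within each medium depend on them. The 1971 in rich medium were 1208, 1258 and 1018 without rich BafA1 replicate 1, 2 or 3. The 2058 in depleted medium were 1046 and 900 without depleted BafA1 replicate 2 or 3, 1042, 1046 and 1292 without depleted vehicle replicate 1, 2 or 3, and 3110 without rich vehicle replicate 1.

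**Figure D1:**
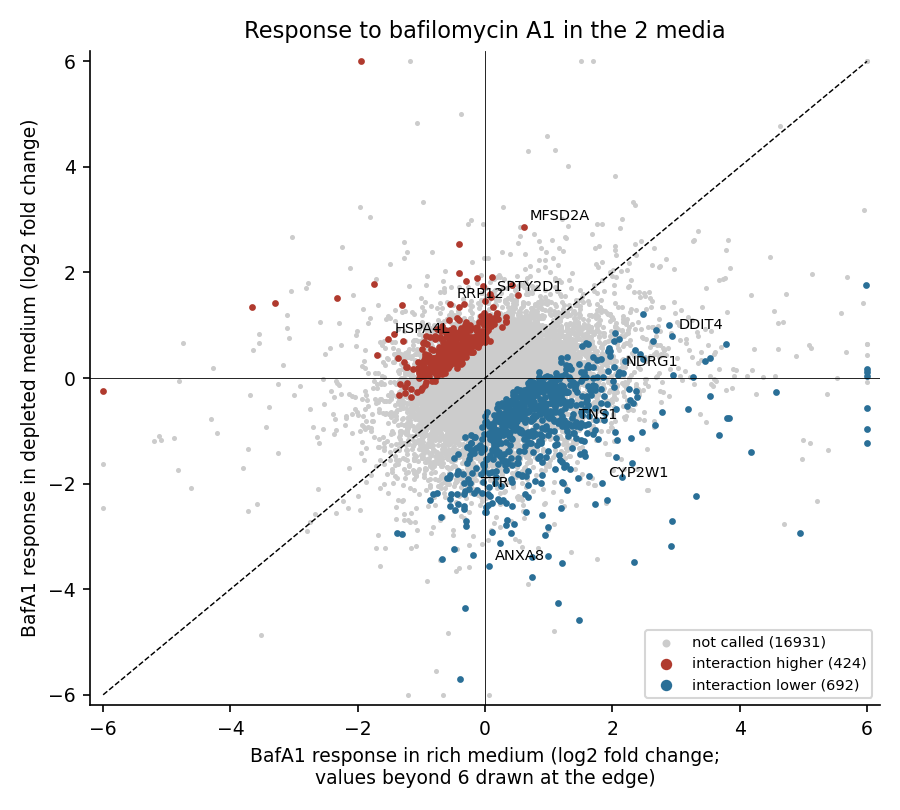
Each point is 1 of 18047 genes, with its BafA1 response (log2 fold change) in rich medium on the x axis and in depleted medium on the y axis, and values beyond 6 drawn at the edge. The 424 genes called higher lie above the dashed line of equal response and the 692 called lower lie below it.

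Over the 4 groups the called genes fell into 4 patterns. A positive contrast needs high levels in rich vehicle and depleted BafA1 together, so that 1 of these tends to be the highest is set by the contrast; which one is not. Of the 424 higher genes, 248 were highest in rich vehicle and 176 in depleted BafA1. Of the 692 lower genes, 393 were lowest in rich vehicle, 298 in depleted BafA1 and 1, DUSP5, in depleted vehicle. Over all genes tested, rich vehicle was the highest group for 32.4% and the lowest for 37.2%, and depleted BafA1 the highest for 31.4% and the lowest for 31.4%.

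With all 12 libraries, the pattern with the most genes was an increase that did not add up. Its share of the lower calls, 56.8%, was 46.4% without rich BafA1 replicate 3 and 49.1% without depleted vehicle replicate 1, 48.8% with limma voom quality weights and 45.5% at a minimum fold of 1.5, so its rank above the genes lowest in depleted BafA1 depends on these choices. For the 393 genes lowest in rich vehicle, the median level relative to that group was 1.10 higher on the log2 scale in rich BafA1, 1.43 in depleted vehicle and 0.95 in depleted BafA1. In the mirror pattern of 248 genes the medians were -0.66 in rich BafA1, -0.92 in depleted vehicle and -0.45 in depleted BafA1. In the other 2 patterns the single changes were smaller at the median than that of depleted BafA1. The 298 genes lowest in depleted BafA1 had medians of 0.28, 0.40 and -0.87 in the same order. The 176 genes highest there had -0.23, -0.28 and 0.43. Single members could differ, as CCND1 and PDGFRB, which also changed in depleted vehicle.

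**Figure D2:**
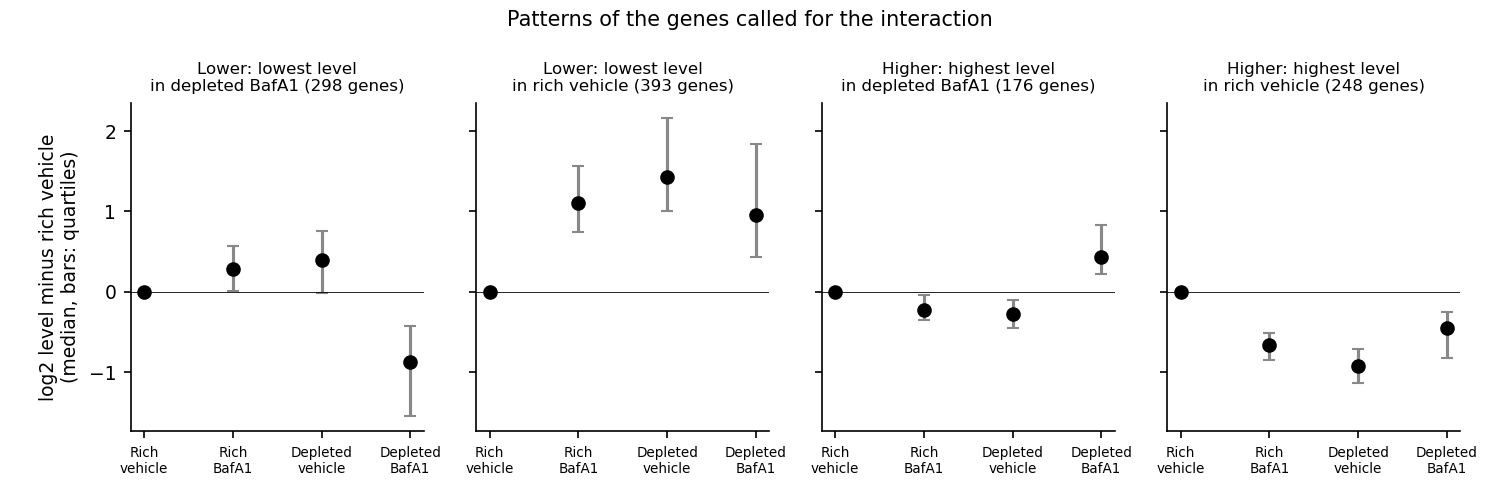
Median log2 level relative to rich vehicle (y axis, bars from the first to the third quartile) in the 4 groups (x axis) for the 4 patterns of called genes, with the number of genes in each title. In 2 panels all 3 other groups lie on 1 side of rich vehicle, and in the other 2 only depleted BafA1 departs by more than 0.40 at the median.

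Genes that were lowest with both treatments were led by ANXA8, an annexin that binds membrane phospholipids (chromosome 10, 47467993 to 47991796, GRCh38.p14, as are all positions here). ANXA8 stood at 5.21, 5.46 and 5.47 CPM in rich vehicle, 5.04, 6.0 and 5.84 in rich BafA1, 9.14, 8.85 and 8.46 in depleted vehicle and 1.01, 0.734 and 0.447 in depleted BafA1. The 3 depleted BafA1 libraries lay below the other 9, while rich BafA1 overlapped rich vehicle and depleted vehicle lay above both. Multiplying the single changes gives 9.22 CPM against a mean of 0.731 (log2 interaction -3.62, SE 0.37, adjusted p = 0.00055). ANXA8L1, a near-identical copy, was called lower too, and how reads were shared between them is uncertain.

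TTR, the gene of the thyroid hormone carrier transthyretin (chromosome 18, 31591877 to 31598821), stood at 35.6, 41.9 and 36.02 CPM in rich vehicle, 31.8, 37.1 and 32.1 in rich BafA1, 35.3, 46.97 and 36.2 in depleted vehicle and 10.4, 7.86 and 7.93 in depleted BafA1. The first 3 groups overlapped and depleted BafA1 lay below all 9 of their libraries (log2 interaction -2.0, SE 0.24, adjusted p = 0.0015). CCND1, which encodes the G1 cyclin D1, stood at 461, 415 and 474 CPM in rich vehicle, 403, 467 and 218 in rich BafA1, 142, 131 and 149 in depleted vehicle and 38.2, 30.1 and 27.3 in depleted BafA1. Depleted vehicle lay below rich vehicle and depleted BafA1 lower still, whereas in rich medium the treatments overlapped (log2 interaction -1.83, SE 0.32, adjusted p = 0.0065). PDGFRB, the platelet-derived growth factor receptor beta gene, stood at 4.84, 6.21 and 4.09 CPM in rich vehicle, 4.51, 5.0 and 9.46 in rich BafA1, 17.7, 22.9 and 12.8 in depleted vehicle and 4.25, 3.64 and 2.38 in depleted BafA1. It was higher in depleted vehicle than in any other library, and depleted BafA1 had the lowest mean (log2 interaction -2.69, SE 0.45, adjusted p = 0.0058). SPRY1, a feedback inhibitor of receptor tyrosine kinase signalling, had a log2 interaction of -1.56 (adjusted p = 0.012). TNFAIP2 had -2.13 (adjusted p = 0.018), a call that ended in 3 of the 12 fits without 1 library, those without depleted BafA1 replicate 2 or 3 or depleted vehicle replicate 1.

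Genes lowest in rich vehicle, with single increases that did not add up, included 3 of those with the smallest p-values. TNS1, which encodes the focal adhesion protein tensin 1 (chromosome 2, 217799791 to 218033982), stood at 23.4, 31.01 and 24.6 CPM in rich vehicle, 64.2, 69.2 and 73.4 in rich BafA1, 88.9, 69.3 and 73.2 in depleted vehicle and 48.6, 37.6 and 38.4 in depleted BafA1. Both single treatments lay above rich vehicle without overlap, and depleted BafA1 lay between them and rich vehicle. The product of the single changes is 202 CPM and the observed mean was 41.5 (log2 interaction -2.28, SE 0.23, adjusted p = 0.00055). NDRG1, a stress and hypoxia responsive gene (chromosome 8, 133237175 to 133297252), stood at 15.9, 19.1 and 17.9 CPM in rich vehicle, 63.96, 86.9 and 77.3 in rich BafA1, 83.3, 64.4 and 77.5 in depleted vehicle and 84.1, 78.9 and 81.3 in depleted BafA1. Here the 3 treated groups overlapped, so that BafA1 raised NDRG1 in rich medium (log2 fold change 2.11) and left it within the spread in depleted medium (0.12; log2 interaction -1.99, SE 0.22, adjusted p = 0.00076). FZD4, a receptor of WNT ligands (chromosome 11, 86945679 to 86955395), stood at 109, 128 and 83.6 CPM in rich vehicle, 272, 288 and 242 in rich BafA1, 310.3, 349 and 284 in depleted vehicle and 180.5, 189.5 and 143 in depleted BafA1. Depleted BafA1 lay above rich vehicle and below both single treatments (log2 interaction -2.21, SE 0.25, adjusted p = 0.0012).

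DDIT4 encodes REDD1, an inhibitor of mTORC1 (chromosome 10, 72273924 to 72276036). DDIT4 stood at 9.0, 14.8 and 21.7 CPM in rich vehicle, 101, 136 and 116 in rich BafA1, 86.9, 80.3 and 115 in depleted vehicle and 177, 144 and 171 in depleted BafA1. Depleted BafA1 was the highest group by mean, but the rise over depleted vehicle was 0.80 on the log2 scale against 2.94 in rich medium (log2 interaction -2.13, SE 0.34, adjusted p = 0.005). The aldo-keto reductase gene AKR1C1, a target of the antioxidant factor NRF2, stood at 9.08, 15.4 and 12.3 CPM in rich vehicle, 93.9, 59.99 and 84.9 in rich BafA1, 102, 90.2 and 96.8 in depleted vehicle and 170.2, 188 and 188 in depleted BafA1. It rose in both media, by log2 values of 2.68 and 0.92, and its negative interaction (-1.77, adjusted p = 0.0044) holds for ratios only, since in CPM the rise in depleted medium was the larger. AKR1C2 was alike (-1.33, adjusted p = 0.0084); these genes are close paralogs and their reads may be shared.

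CYP2W1, a cytochrome P450 of colorectal tumours, had the lowest interaction among genes averaging 5 CPM or more (log2 interaction -3.83, SE 0.57, adjusted p = 0.0042). It stood at 1.12, 2.12 and 3.12 CPM in rich vehicle, 4.26, 5.25 and 14.2 in rich BafA1, 16.4, 23.3 and 18.5 in depleted vehicle and 5.02, 4.17 and 5.39 in depleted BafA1. Depleted vehicle lay above rich vehicle, and depleted BafA1 stood near rich BafA1 replicates 1 and 2. Without both libraries that stood apart, the log2 interaction of CYP2W1 was -2.85 and that of ANXA8 -3.57, so the rank of CYP2W1 depends on them. MORN3 stood at 5.36, 8.57 and 8.91 CPM in rich vehicle, 20.5, 14.2 and 31.1 in rich BafA1, 39.5, 33.9 and 36.2 in depleted vehicle and 14.8, 15 and 18.7 in depleted BafA1, so that depleted BafA1 again lay near rich BafA1 (log2 interaction -2.69, SE 0.36, adjusted p = 0.0022). The transporter gene ABCC3 stood at 16.4, 23.4 and 15.2 CPM in rich vehicle, 43.4, 42.8 and 80.2 in rich BafA1, 119.7, 119 and 102 in depleted vehicle and 81.97, 88.98 and 54.1 in depleted BafA1 (log2 interaction -2.19, SE 0.36, adjusted p = 0.005). Its depleted BafA1 libraries lay above rich vehicle and below depleted vehicle. TP53INP1, a p53 target that acts in autophagy, stood at 16, 11.5 and 10.6 CPM in rich vehicle, 39, 34.1 and 37.2 in rich BafA1, 49.6, 37.4 and 40.1 in depleted vehicle and 48.98, 43.1 and 45.7 in depleted BafA1. Depleted vehicle overlapped both BafA1 groups, and all 3 lay above rich vehicle (log2 interaction -1.43, SE 0.24, adjusted p = 0.006). The interferon-induced IFIT3 stood at 2.01, 1.49 and 1.54 CPM in rich vehicle, 5.26, 5.18 and 4.36 in rich BafA1, 3.76, 3.1 and 3.54 in depleted vehicle and 2.47, 1.89 and 2.56 in depleted BafA1 and was highest in rich BafA1 (log2 interaction -2.16, SE 0.38, adjusted p = 0.0062).

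The remaining genes with the lowest interactions at this level were ALPP (a placental type alkaline phosphatase with close copies, -2.82), EMP1 (-2.65), S100P (-2.62), CYFIP2 (-2.57), TFEC (-3.17), SPTLC3 (-2.62), PTH1R (-3.34) and the carboxypeptidase M gene, whose log2 interaction was -2.71. ALPP, EMP1 and S100P kept their calls in all 12 fits without 1 library. The call ended in 10 of these 12 fits for PTH1R (adjusted p up to 0.099) and in 8 for SPTLC3 (up to 0.095). TFEC, a transcription factor of the MiT/TFE family that regulates lysosomal genes, stood at 13.5, 7.99 and 12.6 CPM in rich vehicle, 11.4, 13.5 and 53.1 in rich BafA1, 61.9, 63.2 and 82.5 in depleted vehicle and 19.3, 17.4 and 16.4 in depleted BafA1. Its call ended without depleted BafA1 replicate 2 or 3 or depleted vehicle replicate 3. Rich BafA1 replicate 3 lay far above its group mates for TFEC. The CYFIP2 call ended without depleted vehicle replicate 1. Without rich BafA1 replicate 3 the log2 interactions of TFEC, SPTLC3 and CYFIP2 were -2.11, -1.54 and -1.69.

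**Figure D3:**
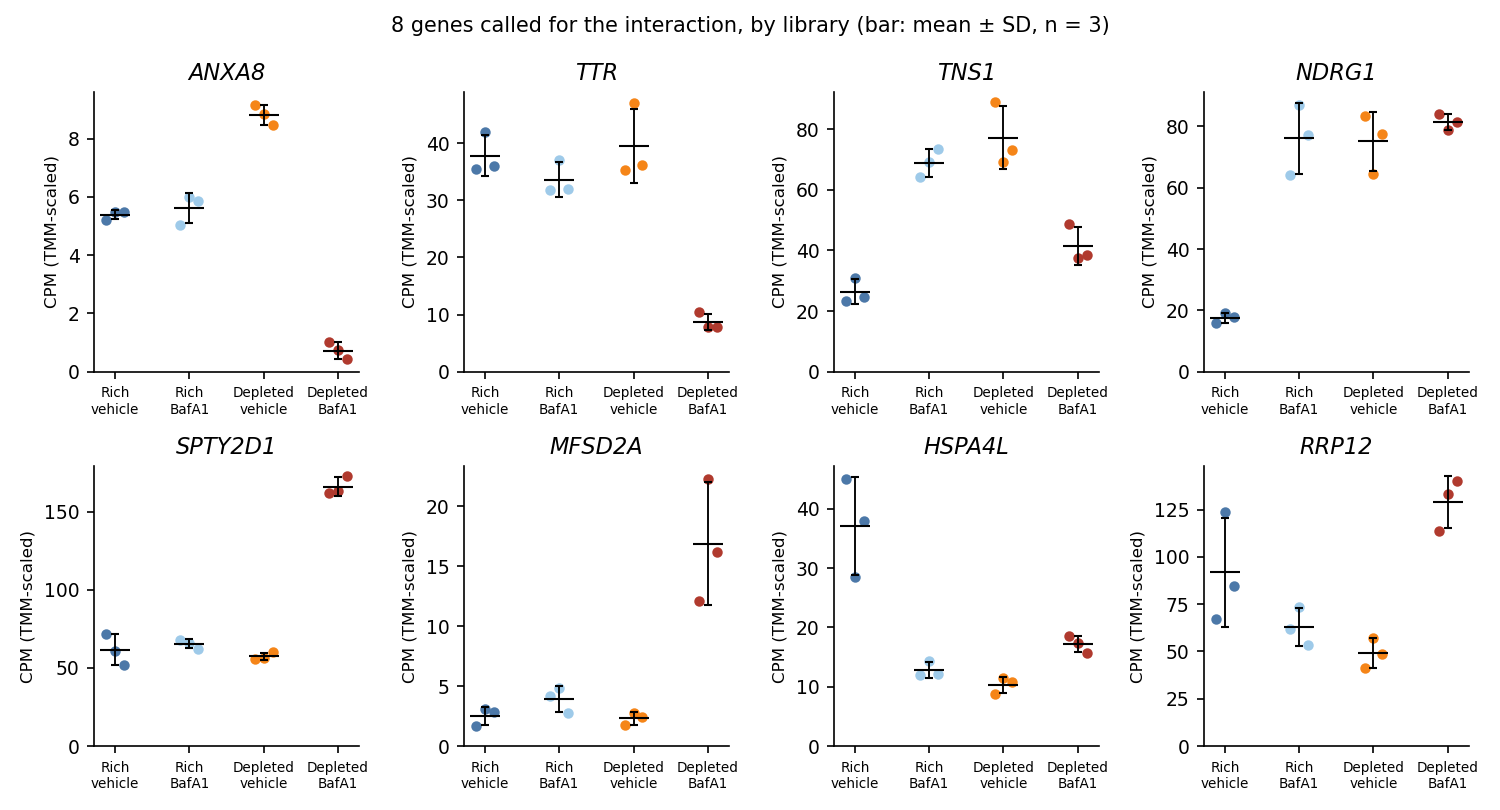
CPM (y axis, from 0) of 8 called genes in the 12 libraries, grouped by medium and treatment (x axis), with the mean and SD of 3 libraries. In ANXA8 and TTR only depleted BafA1 is low, in TNS1 and NDRG1 rich vehicle is the lowest group, and in SPTY2D1 and MFSD2A depleted BafA1 stands above the other 9 libraries.

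Genes that were highest with both treatments formed the smallest pattern with all 12 libraries. Without both libraries that stood apart, the share of higher calls highest in rich vehicle was 49.1% against 58.5%, so this rank may depend on them. SPTY2D1, a histone chaperone gene (chromosome 11, 18606403 to 18634342), stood at 71.7, 60.9 and 51.8 CPM in rich vehicle, 67.8, 66.2 and 62.1 in rich BafA1, 55.9, 56.5 and 60.2 in depleted vehicle and 162, 163 and 173 in depleted BafA1. The first 9 libraries spanned 51.8 to 71.7 CPM and the last 3 lay at 162 or more (log2 interaction 1.44, SE 0.20, adjusted p = 0.0024). SCFD2, a gene of the vesicle trafficking Sec1 family, stood at 9.6, 11.04 and 11.03 CPM in rich vehicle, 11.6, 9.45 and 9.96 in rich BafA1, 8.11, 9.35 and 7.82 in depleted vehicle and 25.2, 28.97 and 30.9 in depleted BafA1, with the same separation (log2 interaction 1.78, SE 0.24, adjusted p = 0.0022). MFSD2A, a lysophospholipid transporter (chromosome 1, 39955145 to 39969956), stood at 1.64, 3.05 and 2.85 CPM in rich vehicle, 4.15, 4.84 and 2.74 in rich BafA1, 1.75, 2.79 and 2.41 in depleted vehicle and 12.1, 22.3 and 16.2 in depleted BafA1. Every depleted BafA1 library lay above the other 9 (log2 interaction 2.27, SE 0.44, adjusted p = 0.01). The stress factor gene ATF3 stood at 23.1, 26.8 and 30.9 CPM in rich vehicle, 36.4, 38.5 and 40.3 in rich BafA1, 32.6, 39.1 and 47.4 in depleted vehicle and 107, 127 and 122 in depleted BafA1. Its interaction was 1.07 (adjusted p = 0.015) and the call ended without depleted vehicle replicate 1. ATF6, a sensor of endoplasmic reticulum stress, stood at 69.8, 87.8 and 67.1 CPM in rich vehicle, 71.4, 74.05 and 86.1 in rich BafA1, 86.3, 103 and 86.5 in depleted vehicle and 162, 234 and 199.8 in depleted BafA1 (log2 interaction 1.07, adjusted p = 0.017). Its call ended without depleted BafA1 replicate 2 or depleted vehicle replicate 1. SLC36A4, an amino acid transporter gene, had a log2 interaction of 1.75 and C2orf27A one of 1.74. HAS3, a hyaluronan synthase gene, had 1.67, a call that ended without depleted BafA1 replicate 2.

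Genes that were highest in rich vehicle, with single decreases that did not add up, were led by HSPA4L, a cytosolic chaperone of the HSP110 family (chromosome 4, 127781796 to 127840733). HSPA4L stood at 44.9, 28.6 and 37.9 CPM in rich vehicle, 11.9, 14.4 and 12.2 in rich BafA1, 8.76, 11.4 and 10.7 in depleted vehicle and 18.5, 17.4 and 15.7 in depleted BafA1. BafA1 lowered it in rich medium (log2 fold change -1.53) and raised it in depleted medium (0.74), and depleted BafA1 stood at a mean of 17.2 CPM where the product of the single changes is 3.57 (log2 interaction 2.27, SE 0.27, adjusted p = 0.0013). FJX1, a secreted regulator of planar polarity (chromosome 11, 35618460 to 35620865), stood at 20.8, 37.8 and 36.9 CPM in rich vehicle, 10.51, 9.26 and 9.75 in rich BafA1, 4.41, 7.9 and 8.63 in depleted vehicle and 6.75, 10.1 and 11.6 in depleted BafA1. All 9 treated libraries lay below rich vehicle, and depleted BafA1 overlapped both single treatments (log2 interaction 2.14, SE 0.40, adjusted p = 0.0079). SLC25A32, the mitochondrial folate carrier gene, stood at 62.4, 35.4 and 48.2 CPM in rich vehicle, 32.9, 31 and 21.9 in rich BafA1, 20.5, 23.9 and 22.9 in depleted vehicle and 38.3, 40.7 and 48.6 in depleted BafA1. It fell in rich medium and rose in depleted medium (log2 interaction 1.69, SE 0.29, adjusted p = 0.0062). AEN, a p53-induced nuclease gene, stood at 55.1, 54.2 and 74.99 CPM in rich vehicle, 43.7, 42.9 and 29.1 in rich BafA1, 19.5, 24.7 and 22.04 in depleted vehicle and 43.9, 45.7 and 40.5 in depleted BafA1 and moved in the same 2 directions (log2 interaction 1.65, SE 0.26, adjusted p = 0.0048). SCML1 stood at 65.2, 57.6 and 61.3 CPM in rich vehicle, 49.5, 45.3 and 39.9 in rich BafA1, 23.3, 30.3 and 29.7 in depleted vehicle and 58.9, 65.1 and 59.6 in depleted BafA1. Its depleted BafA1 libraries overlapped those of rich vehicle (log2 interaction 1.59, SE 0.21, adjusted p = 0.002). POLR3G, a subunit of RNA polymerase III, had a log2 interaction of 1.98, and the call ended without depleted BafA1 replicate 3 or depleted vehicle replicate 1 or 2, and without both libraries that stood apart. RNR2, the mitochondrial large ribosomal RNA, had 2.27, but this RNA is a target of the ribosomal depletion step and its call ended in 7 of 12 fits.

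Promoters of called genes were searched for short motifs on both strands in the 250 bases before the RefSeq start (GRCh38.p14), which were at hand for 12548 of the genes tested, 350 of them called higher and 510 lower. ACGTG, the core read by hypoxia-inducible factors and contained in the E-box CACGTG, was present in 32.3% of promoters of higher genes, 16.1% of lower genes and 22.6% of all. CACGTG itself was in 14.6%, 6.47% and 8.58%, and CCACG, which can overlap it, in 53.4%, 33.9% and 43.1%. The median GC content of the 3 sets was 63.2%, 65.4% and 64.8%, and the median number of CG pairs 21, 17 and 20; the part of base composition in these shares was not tested. GAANNTTC, a core of the heat shock element, was in 44.4% of 18 promoters of cytosolic chaperone genes and in 4.09% of all, against 4.57% and 4.31% in higher and lower genes. A match describes the letters and is not a bound site.

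Of the promoters below, CHORDC1 is shown as the called chaperone gene with 3 matches to GAANNTTC, and FJX1, SPTY2D1 and DDIT4 as genes of 3 patterns that each hold ACGTG or its reverse CACGT. Capitals mark the matches. The windows are chr11:90223050-90223299 (minus strand), chr11:35618210-35618459 (plus), chr11:18634343-18634592 (minus) and chr10:72273674-72273923 (plus), each written 5′ to 3′ along its gene.
CHORDC1: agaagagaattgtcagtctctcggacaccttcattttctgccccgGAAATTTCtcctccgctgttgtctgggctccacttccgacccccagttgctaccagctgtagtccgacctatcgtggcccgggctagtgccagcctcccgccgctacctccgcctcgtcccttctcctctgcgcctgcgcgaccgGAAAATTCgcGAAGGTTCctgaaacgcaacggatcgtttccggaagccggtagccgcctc
FJX1: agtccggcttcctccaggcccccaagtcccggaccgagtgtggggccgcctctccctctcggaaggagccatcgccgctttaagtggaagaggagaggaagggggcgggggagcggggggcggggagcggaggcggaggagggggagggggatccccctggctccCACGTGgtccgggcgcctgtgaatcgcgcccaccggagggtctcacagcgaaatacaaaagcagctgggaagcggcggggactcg
SPTY2D1: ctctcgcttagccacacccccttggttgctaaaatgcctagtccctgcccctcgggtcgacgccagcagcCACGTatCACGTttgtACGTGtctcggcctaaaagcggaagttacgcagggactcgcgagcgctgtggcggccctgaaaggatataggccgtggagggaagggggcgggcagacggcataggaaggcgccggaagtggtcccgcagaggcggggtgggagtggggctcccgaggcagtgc
DDIT4: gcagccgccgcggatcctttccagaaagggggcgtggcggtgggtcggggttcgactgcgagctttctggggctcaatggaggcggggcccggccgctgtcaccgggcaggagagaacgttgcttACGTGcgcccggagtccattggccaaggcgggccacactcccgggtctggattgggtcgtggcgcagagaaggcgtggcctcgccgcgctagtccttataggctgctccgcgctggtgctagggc
In SPTY2D1 the 3 matches lay close together, and in FJX1 the 2 overlapping matches formed 1 CACGTG.

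Ribosome production was the list with the most called members. Counts in this list and in those below are to be read against the shares of all genes called. Of 39 ribosome biogenesis genes tested, 18 had a higher interaction and 0 a lower one, beside 2.35% and 3.83% of all genes, and the list's median was 0.84 against -0.05. In rich medium 21 of the 39 fell and 0 rose, and in depleted medium 0 fell and 7 rose. Of the 18 called, 16 were highest in rich vehicle and RRP12 and GNL3 in depleted BafA1. The count was 16 without both libraries that stood apart, 11 without depleted BafA1 replicate 3 or rich BafA1 replicate 3, 9 without depleted vehicle replicate 1 and up to 22 in other fits without 1 library.

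RRP12, which acts in export of ribosomal subunits (chromosome 10, 97356357 to 97401370), stood at 67.4, 124 and 84.5 CPM in rich vehicle, 61.6, 73.5 and 53.4 in rich BafA1, 41.4, 57.2 and 48.6 in depleted vehicle and 114, 133 and 140.3 in depleted BafA1. The depleted BafA1 libraries lay above the depleted vehicle ones without overlap, while rich vehicle and rich BafA1 overlapped (log2 interaction 1.95, SE 0.29, adjusted p = 0.0042). POLR1B, the second largest subunit of RNA polymerase I (chromosome 2, 112542036 to 112579818), stood at 104, 80.7 and 81.4 CPM in rich vehicle, 60.2, 68.9 and 47.3 in rich BafA1, 48.5, 44.8 and 45.95 in depleted vehicle and 90.99, 83.3 and 83.2 in depleted BafA1. It fell in rich medium (log2 fold change -0.59), rose in depleted medium (0.89) and in depleted BafA1 was back in the range of rich vehicle (log2 interaction 1.48, SE 0.22, adjusted p = 0.0042). NOP58, a core protein of box C/D small nucleolar ribonucleoproteins, stood at 85.4, 69.8 and 75.2 CPM in rich vehicle, 52.2, 51.4 and 37.6 in rich BafA1, 36.5, 42.1 and 40.4 in depleted vehicle and 63.7, 58.1 and 78.6 in depleted BafA1 and moved the same 2 ways (log2 interaction 1.46, SE 0.23, adjusted p = 0.005). The nucleolar genes UTP15, WDR43, BRIX1, NOLC1, RRP9 and MYBBP1A had interactions of 1.25, 1.10, 1.30, 1.31, 1.25 and 1.55. Members such as FBL (0.33), NPM1 (-0.07), NCL (0.50) and POLR1A (0.50) did not pass. The 53 cytosolic ribosomal protein genes, which encode the proteins of the ribosome itself, had 0 calls in edgeR and a median of -0.49, with 52 of 53 below 0. Of the other growth lists, 2 of 36 mitosis genes were higher (CDC20, 0.97, and BUB1, 0.82) although 32 fell in rich and 14 in depleted medium. For DNA replication it was 1 of 42 (CDC6, 0.91), near the 2.35% of all genes. The BUB1 and CDC6 calls ended in 10 and 9 of 12 fits without 1 library, and that of CDC20 without depleted vehicle replicate 1.

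Called genes of cytosolic chaperones were higher as well. Of 20 heat shock genes, 5 were higher and 0 lower (median 0.53), beside 2.35% and 3.83% of all genes. In rich medium 11 fell and 1 rose, and in depleted medium 1 fell. HSPH1, an HSP110 chaperone, stood at 299, 250.0 and 260.4 CPM in rich vehicle, 147, 149.9 and 122 in rich BafA1, 100.3, 117 and 120.1 in depleted vehicle and 137, 142 and 168 in depleted BafA1. All 9 treated libraries lay below the rich vehicle ones, and depleted BafA1 lay above depleted vehicle (log2 interaction 1.35, SE 0.21, adjusted p = 0.0048). CHORDC1, an HSP90 co-chaperone, stood at 223, 127 and 167 CPM in rich vehicle, 75.01, 75.9 and 67.7 in rich BafA1, 65.3, 65.9 and 70.9 in depleted vehicle and 78.9, 69.3 and 84.2 in depleted BafA1. Its 3 treated groups overlapped at less than the lowest rich vehicle library (log2 interaction 1.44, SE 0.25, adjusted p = 0.006). FKBP4, an HSP90-binding immunophilin, had a log2 interaction of 1.31, HSPA4 of 1.02 and HSP90AA1 of 1.09. The inducible genes HSPA1A (0.51) and DNAJB1 (0.26) and the constitutive HSPA8 (0.01) did not pass. The count of 5 was 3 without both libraries that stood apart, and also without depleted BafA1 replicate 3, depleted vehicle replicate 1 or 3 or rich BafA1 replicate 3.

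Fewer proteasome subunit genes were called. Of 30 genes 4 were higher and 0 lower, beside 2.35% and 3.83% of all genes. The median was 0.55, and 28 had an interaction above 0. PSMD12, a lid subunit, stood at 185, 134 and 168 CPM in rich vehicle, 121, 116 and 97.95 in rich BafA1, 77.4, 74.7 and 86.4 in depleted vehicle and 118, 121 and 174 in depleted BafA1 (log2 interaction 1.33, SE 0.25, adjusted p = 0.0088). Its depleted BafA1 libraries lay above depleted vehicle without overlap. PSMC4, PSMC2 and PSMD6 of the regulatory particle had 1.11, 1.0 and 0.93. The PSMD6 call ended without depleted BafA1 replicate 3 or depleted vehicle replicate 1 or 2. The count was 2 without depleted BafA1 replicate 3 or depleted vehicle replicate 1 and 9 without rich vehicle replicate 2. In the list of 27 endoplasmic reticulum chaperone and degradation genes only ATF6 passed, and HSPA5, the main chaperone of that compartment, did not (0.79, adjusted p = 0.24).

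**Figure D4:**
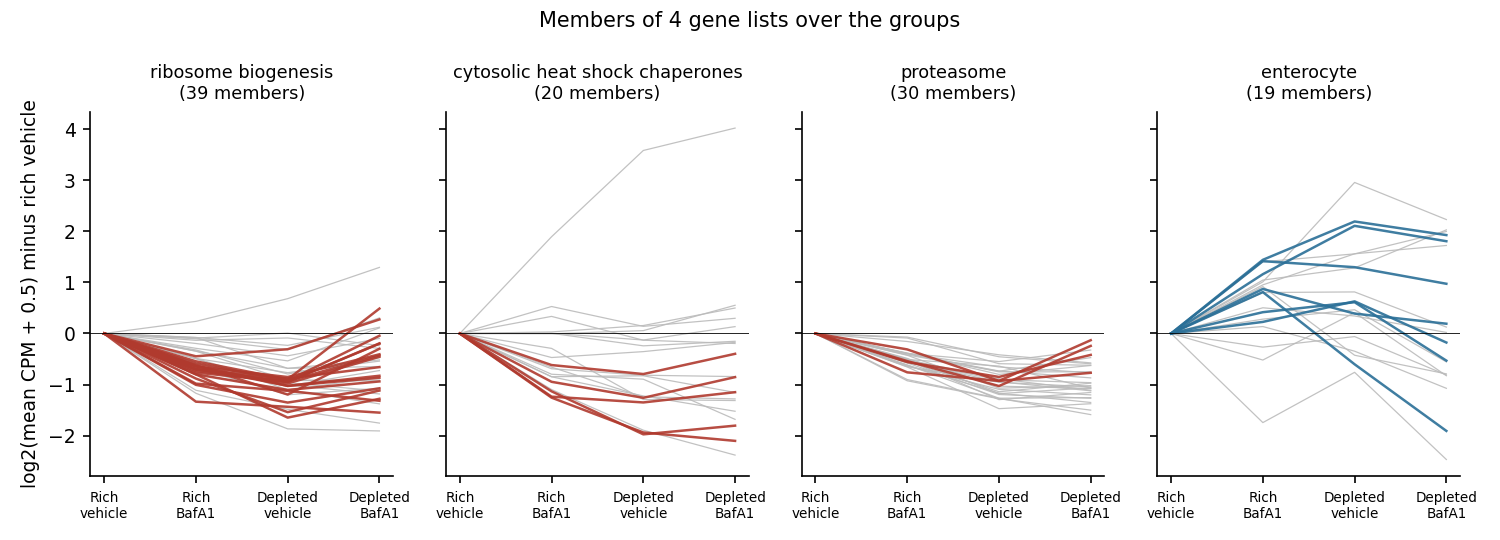
Each line is 1 gene averaging 1 CPM or more over the 12 libraries, drawn as log2(mean CPM + 0.5) relative to rich vehicle (y axis) over the 4 groups (x axis), for 39 ribosome biogenesis, 20 heat shock, 30 proteasome and 19 enterocyte genes. Red lines were called higher, blue lines lower and grey lines not called, and the red lines turn upwards from depleted vehicle to depleted BafA1 in most genes after a fall in the single treatments.

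Called enterocyte genes were lower. Of 26 tested, 7 were lower and 0 higher, beside 3.83% and 2.35% of all genes, with a median of -1.27. Only 19 of the 26 averaged 1 CPM or more, so this median includes genes near the floor. In rich medium 6 of the 26 rose and 1 fell, while 1 rose and 5 fell in depleted medium. ANPEP, a brush border aminopeptidase, stood at 3.57, 4.83 and 2.85 CPM in rich vehicle, 9.78, 11.6 and 11.2 in rich BafA1, 10.51, 7.15 and 12.2 in depleted vehicle and 11.2, 5.4 and 6.97 in depleted BafA1. Rich BafA1 lay above rich vehicle without overlap, and in depleted medium the treatments overlapped (log2 interaction -1.87, SE 0.41, adjusted p = 0.018), a call that ended without depleted BafA1 replicate 2 or 3 or depleted vehicle replicate 1 or 3, and without both libraries that stood apart. LCT, the lactase gene, stood at 1.56, 3.63 and 3.85 CPM in rich vehicle, 4.19, 9.2 and 3.61 in rich BafA1, 1.71, 1.93 and 1.81 in depleted vehicle and 0.736, 0.426 and 0.149 in depleted BafA1, so that depleted BafA1 lay below all other libraries at low levels (log2 interaction -2.88, SE 0.69, adjusted p = 0.025), a call that ended in 6 of 12 fits without 1 library. SLC15A1, a peptide transporter gene, MYO1A, CDHR5 and USH1C of the microvilli, and APOA1 had interactions of -1.10, -1.49, -1.71, -1.04 and -1.56. VIL1 (-0.48) and ALPI (-0.98) did not pass. This list rested on single libraries: 2 members were lower without both libraries that stood apart, 0 without depleted BafA1 replicate 3, and 1 without depleted BafA1 replicate 2 or depleted vehicle replicate 1 or 3. It was 2 without depleted vehicle replicate 2, 3 without rich BafA1 replicate 2, and 4 without rich BafA1 replicate 3 or rich vehicle replicate 1.

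Of 12 Caco-2 identity genes tested, 2 were lower, CDX2 and HNF4A, transcription factors of intestinal epithelium. All 12 had an interaction below 0, with a median of -0.71. CDX2 stood at 43.8, 65.7 and 103 CPM in rich vehicle, 109, 166 and 150.1 in rich BafA1, 134, 118 and 153 in depleted vehicle and 89.5, 74.05 and 77.6 in depleted BafA1. Rich BafA1 lay above rich vehicle without overlap, and depleted BafA1 lay below depleted vehicle (log2 interaction -1.74, SE 0.35, adjusted p = 0.011). HNF4A had -0.99 (adjusted p = 0.028), and its call ended in 6 of 12 fits without 1 library. Among lists for other cell types, 1 of 5 goblet genes was lower (ZG16, -1.83) and 1 of 6 fibroblast genes (PDGFRB), beside 3.83% of all genes. It was 1 of 3 in the leukocyte list, the myeloid receptor gene CSF1R (-1.93). The Paneth list also had 1 of 3, ITLN2 (-3.48, at 0.142 to 1.87 CPM). The goblet, fibroblast, leukocyte and Paneth medians were -0.81, -0.19, -0.03 and -0.56. Above 0 lay 2 fibroblast genes and 1 leukocyte gene, uncalled. Of 4 enteroendocrine genes tested, all at low levels, 0 were called, 1 lay above 0 and the median was -1.92. PTPRC and CD3E were near 0 CPM throughout. PROM1, a stem cell surface marker, was the 1 lower gene of 19 in the WNT and stem cell list (-1.32, ended in 8 of 12 fits).

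Few genes of the lysosome, the compartment BafA1 acts on, were called. The counts of lower genes below are near the 3.83% of all genes tested, and 0 members of these lists were higher. Of 18 V-ATPase subunit genes 1 was lower, ATP6V1C2, an isoform at 0.372 to 4.19 CPM (-2.76, ended in 8 of 12 fits), and ATP6V0D1 had -0.02. Of 35 hydrolases 29 had an interaction below 0 (median -0.45), and 1 was called lower, CTSB, the cathepsin B gene. CTSB stood at 238, 415 and 295 CPM in rich vehicle, 304, 350.3 and 283 in rich BafA1, 290.5, 364 and 288 in depleted vehicle and 138, 179 and 135 in depleted BafA1. Depleted BafA1 lay below all other libraries (log2 interaction -1.04, SE 0.29, adjusted p = 0.044), but the call ended in 11 of 12 fits without 1 library. CLN3 was the 1 lower gene of 22 lysosomal membrane proteins (-0.98). Of 40 autophagy genes 2 were lower, ULK1 (-0.91) and OPTN (-0.81), although 10 rose in rich and 12 in depleted medium. ULK1, the kinase that starts autophagy, stood at 29.8, 43.3 and 31.8 CPM in rich vehicle, 95.5, 98.8 and 119.8 in rich BafA1, 147, 119 and 136 in depleted vehicle and 211, 211 and 216 in depleted BafA1, and so rose with BafA1 in both media, more so as a ratio in rich. SQSTM1 (-0.18), MAP1LC3B (0.65), GABARAPL1 (-0.69), LAMP1 (0.14), CTSD (-0.77) and TFEB (-0.50) did not pass, nor did RRAGD (-1.20, adjusted p = 0.055), a GTPase through which lysosomes recruit mTORC1. The calls of CLN3, ULK1 and OPTN each ended in 7 of 12 fits without 1 library.

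Among 16 mTORC1 inhibitors DDIT4 was lower and NPRL2, a subunit of the amino acid sensing GATOR1 complex, higher. NPRL2 stood at 9.0, 10.8 and 17.7 CPM in rich vehicle, 16.02, 17.6 and 17.4 in rich BafA1, 15.4, 13.4 and 18.2 in depleted vehicle and 42.6, 51.9 and 64.9 in depleted BafA1. Depleted BafA1 lay above the other 9 libraries (log2 interaction 1.33, SE 0.33, adjusted p = 0.028), a call that ended in 7 of 12 fits. Of 20 FOXO and quiescence genes 2 were lower, beside 3.83% of all genes tested. These were CCNG2 (-1.19) and CDKN1C (-1.90, ended in 8 of 12 fits), and the list median was -0.79. ERK feedback genes were lower in 3 of 19 cases, CCND1, SPRY1 and DUSP5. DUSP5, a phosphatase that acts on ERK, stood at 43.6, 45.5 and 48.5 CPM in rich vehicle, 138, 124 and 72.6 in rich BafA1, 25.03, 30.7 and 32.5 in depleted vehicle and 33.6, 32.8 and 34.2 in depleted BafA1. Rich BafA1 stood above all other libraries (-1.09, adjusted p = 0.032, ended in 8 of 12 fits). AMOTL2, a YAP target, had -1.0, ended in 6 of 12 fits.

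Cholesterol genes rose with BafA1 mainly in depleted medium, but only 1 of 25 passed the test of the difference. In rich medium 2 rose and in depleted medium 14 did, and 23 had an interaction above 0 with a median of 0.63. SQLE, the squalene epoxidase gene, stood at 254, 277 and 231 CPM in rich vehicle, 266, 290.1 and 159 in rich BafA1, 115, 179 and 113 in depleted vehicle and 260.5, 309.5 and 276 in depleted BafA1. Depleted vehicle lay below rich vehicle, and depleted BafA1 stood in the range of rich vehicle or above it (log2 interaction 1.15, SE 0.32, adjusted p = 0.044), a call that ended in 8 of 12 fits without 1 library. INSIG1 (0.68, adjusted p = 0.23), HMGCS1 (0.37) and MVK (1.09, adjusted p = 0.055) did not pass, nor did SREBF1 (0.33).

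Called genes of sterol efflux and lipoproteins were lower too. Over all genes tested 3.83% were lower. Of 11 liver X receptor and sterol efflux genes 4 were lower (ABCC3, SMPDL3A at -1.32, NPC2 at -0.82 and CYP27A1 at -1.10), with a median of -0.78. The SMPDL3A call ended without depleted BafA1 replicate 2. NPC2, which hands cholesterol to the lysosomal membrane, stood at 142, 155 and 135 CPM in rich vehicle, 203, 187 and 151 in rich BafA1, 142, 155 and 143 in depleted vehicle and 108, 101 and 103 in depleted BafA1. Depleted BafA1 lay below all other libraries (adjusted p = 0.028), but the call ended in 7 of 12 fits without 1 library and with gene length offsets, where the log2 interaction was -0.51 against -0.82. The count of 4 was 1 without depleted BafA1 replicate 2 and 2 without depleted BafA1 replicate 3, any 1 depleted vehicle library or rich BafA1 replicate 2. Of 15 lipoprotein genes 3 were lower, APOC3 (-1.59), APOA1 and CIDEB (-2.19, ended in 5 of 12 fits), with a median of -0.84. APOA1 stood at 146, 259 and 218 CPM in rich vehicle, 245, 297 and 291 in rich BafA1, 234, 422 and 298 in depleted vehicle and 157, 169 and 105 in depleted BafA1. Depleted BafA1 overlapped rich vehicle in replicates 1 and 2 (log2 interaction -1.56, SE 0.35, adjusted p = 0.019), and the call ended without depleted BafA1 replicate 3 and without both libraries that stood apart. Without depleted BafA1 replicate 3 or both of those libraries 1 of the 15 was lower, and without rich BafA1 replicate 1 it was 5. Of 19 fatty acid oxidation genes 2 were lower, PPARA (-1.29) and CREB3L3 (-1.35, ended in 10 of 12 fits). PPARA, the receptor that drives this pathway, stood at 21.6, 14.1 and 16.8 CPM in rich vehicle, 48.2, 50.2 and 70.1 in rich BafA1, 73.6, 54.8 and 78.9 in depleted vehicle and 87.7, 89.3 and 96.7 in depleted BafA1, and rose by 1.69 on the log2 scale in rich medium.

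Hypoxia response genes were lower in 5 of 23 cases and higher in 1, beside 3.83% and 2.35% of all genes, with a median of -0.60. NDRG1 and LOX, a collagen cross-linking enzyme gene (-1.95, ended in 6 of 12 fits), were lowest in rich vehicle, and PFKFB3 (-1.07), CA12 (-1.91) and SLC2A3 (-1.66) in depleted BafA1. EGLN3, the oxygen sensing prolyl hydroxylase gene, was higher. EGLN3 stood at 28.9, 19.4 and 33.03 CPM in rich vehicle, 10.6, 14.9 and 9.11 in rich BafA1, 4.17, 4.58 and 5.9 in depleted vehicle and 5.5, 5.06 and 6.38 in depleted BafA1 (log2 interaction 1.44, SE 0.34, adjusted p = 0.025), ended in 5 of 12 fits. VEGFA (-0.37), SLC2A1 (-1.02) and LDHA (-0.20) did not pass, and 0 of 20 glycolysis genes were called by edgeR. The count of 5 lower was 1 without depleted BafA1 replicate 1 or 2, depleted vehicle replicate 2 or 3 or rich BafA1 replicate 2. It was 2 without depleted BafA1 replicate 3, depleted vehicle replicate 1 or rich vehicle replicate 1, and 3 without rich BafA1 replicate 1. MLXIPL, a glucose-sensing factor gene, had -1.42, a call that ended without depleted BafA1 replicate 3 or depleted vehicle replicate 1, while TXNIP had 0.80 (adjusted p = 0.32).

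Stress lists held calls of both signs, to be read beside the 2.35% higher and 3.83% lower of all genes. Of 38 ATF4 targets 3 were lower (PHGDH -0.91, ended in 7 of 12 fits, GDF15 -1.53 and ATF5 -1.28) and ATF3 was higher. The list median was -0.45, with 32 of the 38 below 0, and 16 rose in rich medium against 5 in depleted medium. The count of 3 lower was 0 without depleted BafA1 replicate 2 or 3 or depleted vehicle replicate 1 or 3. It was 1 without depleted BafA1 replicate 1, depleted vehicle replicate 2 or rich BafA1 replicate 2 or 3, and 6 without rich vehicle replicate 2. GDF15, a stress cytokine gene, stood at 14.3, 38.04 and 23.2 CPM in rich vehicle, 114, 112 and 70.2 in rich BafA1, 56.3, 81.2 and 58.7 in depleted vehicle and 83.6, 99.2 and 80.8 in depleted BafA1. The 3 treated groups overlapped (log2 interaction -1.53, SE 0.40, adjusted p = 0.035), and the call ended in 9 of 12 fits without 1 library. DDIT3 (-0.74), TRIB3 (-0.23), ASNS (-0.66, adjusted p = 0.068), NUPR1 (-2.29) and INHBE (-0.63) did not pass. Of 22 NRF2 genes tested, GCLM (1.57) and GCLC of glutathione synthesis were higher and AKR1C1, AKR1C2 and AKR1C3 lower. The AKR1C genes are close paralogs whose reads may be shared. The list median was -0.02, with 10 genes above 0 and 12 below, and HMOX1 had -0.07. The GCLM call ended without depleted BafA1 replicate 2 or 3 or depleted vehicle replicate 1, where 0 NRF2 genes were higher, and 1 was higher without depleted BafA1 replicate 1, depleted vehicle replicate 2 or 3, any 1 rich BafA1 library or rich vehicle replicate 1. Of 19 p53 targets AEN and TIGAR (0.98) were higher, TP53INP1 and GDF15 lower, and CDKN1A did not pass (-0.65).

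Of the other lists, 1 of 24 interferon genes was lower (IFIT3), as were 2 of 15 inflammatory genes (IL18, -1.83, and TNFAIP2) and 2 of 18 iron genes. Over all genes tested 3.83% were lower, and the interferon count is near that share. The iron genes were SLC40A1, the iron exporter gene (-1.55), and HFE (-1.11, ended in 9 of 12 fits), while TFRC (0.33) and FTH1 (-0.51) did not pass. The SLC40A1 call ended without depleted BafA1 replicate 2, depleted vehicle replicate 3 or rich BafA1 replicate 3. No gene of the nuclear (51) or mitochondrial (12) respiratory chain lists was called by edgeR, with medians of 0.03 and 0.29. In the remaining panel MKI67 (-0.01), MYC (-0.10), LAMP3 (-2.74), HSPA6 (-2.30) and GPNMB (-0.64) did not pass. MKI67 fell in both media, with log2 values of -1.03 in rich and -1.04 in depleted medium.

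**Figure D5:**
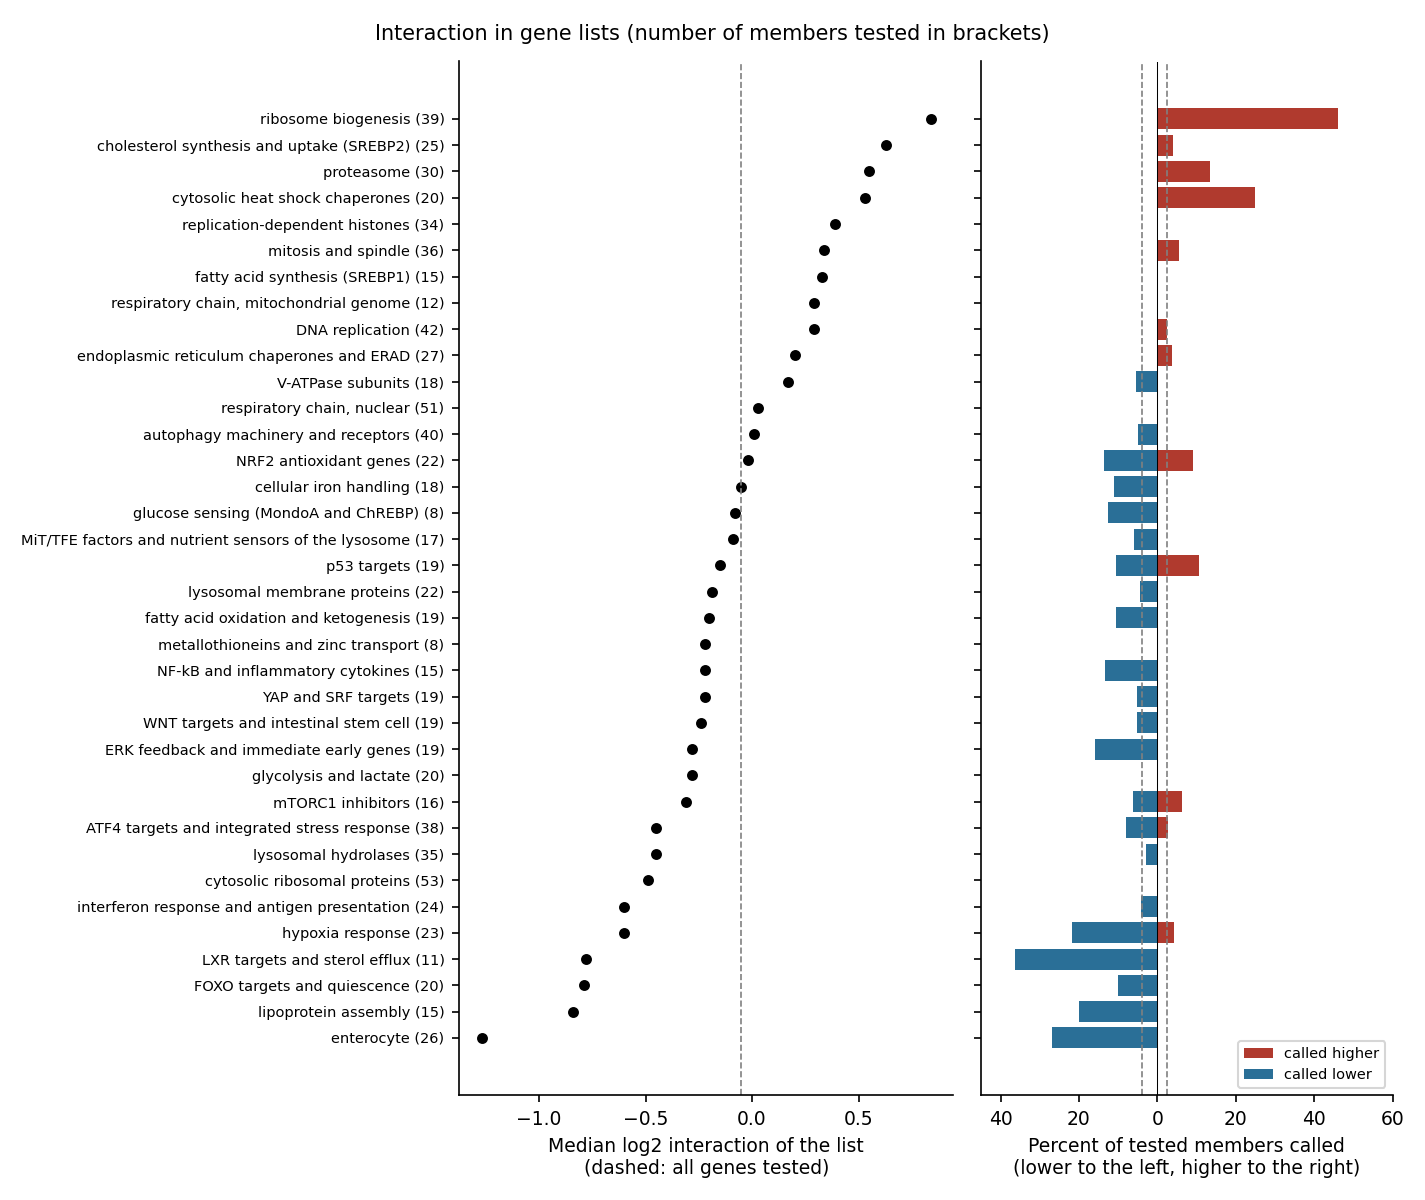
Median log2 interaction (left, x axis) and percent of tested members called lower or higher (right, x axis) for 36 gene lists (y axis, members tested in brackets), with dashed lines for all 18047 genes. Ribosome biogenesis stands at the top with 18 of 39 members higher, and enterocyte genes at the bottom with 7 of 26 lower.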

How the data were processed

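RNA was sequenced from 12 Caco-2 libraries after ribosomal depletion and a stranded preparation, per the labels' protocols. The authors deposited, per the file headers, a table of estimated counts (not whole in 5.08% of values) and TPM per library, and a series-wide table of counts for 13518 genes with at least 10 reads in each library. The submitters' processing notes name DRAGEN and GRCh38 without a version or role. The annotation release and strand setting were not given in the sources used here. Antisense genes and close copies may therefore share reads. TPM was not tested.

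Estimated counts were rounded, filtered with filterByExpr (minimum count 10, minimum total 15) and scaled by TMM. One edgeR 4.0.16 fit (R 4.3.3, robust quasi-likelihood, 1 mean per group, 8 residual degrees of freedom) gave all contrasts. Standard errors come from the fold change and the F statistic. The test was also run on simulated counts with a known interaction. These counts held no outlying library and no shared replicate effect, so they do not cover such features of the data. Alternatives were DESeq2 1.42.0, its size factors, limma 3.58.1 voom weights, gene length offsets, other filters, a minimum fold of 1.5, the series-wide table, the replicate number as a block, leaving out each library, and (chosen after seeing the data) leaving out 2 together.

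Named genes were the 12 highest and 12 lowest interactions with a mean of at least 5 CPM, the 5 smallest p-values per direction, up to 3 called members per list (42 lists) with at least 1 CPM, and a panel of 36 genes. List members named beyond these, and ANXA8L1, were chosen after their values were seen. The members and lists were chosen with earlier results of these data known. Lists are described by counts and medians, with no test. Positions and promoters come from RefSeq (GRCh38.p14).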

Additional observations from a re-analysis of the deposited data

Results flagged for a closer look

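The BafA1 response differed between the 2 media by the edgeR interaction test for 424 genes with a higher and 692 with a lower interaction. The named genes among them are given by pattern as log2 interactions, each from 12 libraries, and the shares of all genes called stand in the report. Among genes highest in depleted BafA1 the interaction was 2.26 for MFSD2A, 1.95 for RRP12, 1.78 for SCFD2, 1.74 for SLC36A4, 1.74 for C2orf27A, 1.67 for HAS3, 1.44 for SPTY2D1, 1.33 for NPRL2, 1.15 for SQLE and 1.07 for ATF3. The last was 1.07 for ATF6. Where rich vehicle was highest it was 2.27 for HSPA4L, 2.27 for RNR2, 2.14 for FJX1, 1.98 for POLR3G, 1.69 for SLC25A32, 1.65 for AEN, 1.59 for SCML1, 1.57 for GCLM, 1.48 for POLR1B and 1.46 for NOP58. It was 1.44 for CHORDC1, 1.44 for EGLN3, 1.35 for HSPH1, 1.33 for PSMD12, 1.31 for FKBP4, 1.11 for PSMC4, 0.98 for TIGAR, 0.97 for CDC20, 0.93 for PSMD6 and 0.91 for CDC6. The last was 0.82 for BUB1. Of the lower genes, those with the least RNA in depleted BafA1 had values of -3.62 for ANXA8, -2.88 for LCT, -2.82 for ALPP, -2.71 for the carboxypeptidase M gene, -2.69 for PDGFRB, -2.65 for EMP1, -2.13 for TNFAIP2, -2.0 for TTR, -1.83 for CCND1 and -1.83 for ZG16. It was -1.56 for APOA1, -1.56 for SPRY1, -1.55 for SLC40A1, -1.32 for SMPDL3A, -1.32 for PROM1, -1.11 for HFE, -1.04 for CTSB, -1.0 for AMOTL2 and -0.82 for NPC2. Those lowest in rich vehicle had values of -3.83 for CYP2W1, -3.34 for PTH1R, -3.17 for TFEC, -2.76 for ATP6V1C2, -2.68 for MORN3, -2.62 for SPTLC3, -2.62 for S100P, -2.57 for CYFIP2, -2.28 for TNS1 and -2.20 for FZD4. It was -2.19 for CIDEB, -2.19 for ABCC3, -2.16 for IFIT3, -2.13 for DDIT4, -1.99 for NDRG1, -1.95 for LOX, -1.93 for CSF1R, -1.90 for CDKN1C, -1.87 for ANPEP and -1.83 for IL18. Further values were -1.77 for AKR1C1, -1.74 for CDX2, -1.59 for APOC3, -1.53 for GDF15, -1.43 for TP53INP1, -1.42 for MLXIPL, -1.35 for CREB3L3, -1.33 for AKR1C2, -1.29 for PPARA and -1.19 for CCNG2. The smaller values were -0.99 for HNF4A, -0.98 for CLN3, -0.91 for ULK1, -0.91 for PHGDH and -0.81 for OPTN. With the lowest level in depleted vehicle it was -1.09 for DUSP5.

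No explanation for these differences was tested.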

How the results depend on the processing

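In none of the 23 alternative fits did a gene called for the interaction change sign. Without 1 library each, the calls ranged from 397 to 1893 (128 to 787 higher, 269 to 1106 lower). The DESeq2 test called 2093 (892 higher, 1201 lower), no low-count filter 1792 (1246 lower), gene length offsets 710 higher, and a minimum fold of 1.5 called 139 (27 higher, 112 lower). Without both libraries that stood apart, a fit chosen after seeing the data, 812 genes were called.

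The labels do not say whether the replicate numbers pair the libraries, and the main fit took them as unpaired. Correlations of deviations from the group means ran from -0.081 to 0.294 over 18 same-number pairs, 6 of them above 0.1. By mean correlation 10 of 12 libraries correlated best with their own number, a hint of pairing from the data and not from the design. With the replicate number as a block 1969 genes were called (742 higher, 1227 lower), and with the replicate block and gene length offsets 2290 (1096 higher, 1194 lower).

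Calls for BafA1 in rich medium, 1971 in all, ranged from 1018 to 2695 without 1 library and were 1052 without the 2 that stood apart, 2990 with the DESeq2 test, 792 with voom quality weights, 213 at a minimum fold of 1.5 and 3360 with the replicate block and length offsets. In depleted medium the 2058 calls ranged from 900 to 3110 without 1 library and were 3479, 5587, 262 and 3214 without those 2 libraries, with voom weights, at the minimum fold and with the block and offsets.

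The share of higher calls highest in rich vehicle, 58.5%, ranged from 52.1% to 65.4% without 1 library and was 49.1% without the 2 libraries and 66.7% at the minimum fold. The share of lower calls lowest in rich vehicle, 56.8%, ranged from 46.4% to 60.8% and was 50.5% without the 2 libraries, 48.8% with voom weights and 45.5% at the minimum fold. The sign on the log2 scale turned on the CPM scale for 12 called genes, all lower. Among those named, the rise in depleted medium exceeded that in rich medium by 8.85 CPM for ULK1, 18.3 for AKR1C1 and 27.3 for AKR1C2, which follows from the scale. Depth limits the shallow rich vehicle library most, and with 3 libraries a group small interactions can be missed.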
